A study of Homo sapiens with 12 samples.

Results

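NRF2 was knocked down with 2 different small interfering RNAs (siRNAs), numbered 28 and 30, in 3 cell lines of human lung cancer (A549, H2023, H460), and the genes on which the 2 siRNAs differed are described here. The libraries compared were the 6 NRF2 siRNA libraries of the 12 in the series, 3 with siRNA 28 and 3 with siRNA 30, matched by cell line. The 6 control siRNA libraries, 2 per line, served to tell which siRNA had moved a gene away from its control level.

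A549 and H2023 are lung adenocarcinoma lines and H460 is a large cell carcinoma line. All 3 are labelled positive for a KEAP1 mutation, in the controls as well as after knockdown. The study calls these lines NRF2-activated: NRF2 is persistently high in them without knockdown and was diminished by an NRF2 siRNA. RNA was collected 48 h after transfection of a control siRNA or of NRF2 siRNA 28 or 30. A549 RNA was depleted of ribosomal RNA whereas polyadenylated RNA was selected from H2023 and H460, so levels were compared within a line only. Each siRNA had 1 library per line, and siRNA 28 was always library 0 and siRNA 30 always library 1, so that siRNA and library number cannot be told apart; the study counted the 2 siRNAs as duplicates. The keratin genes KRT8 and KRT18, which mark epithelial cells, were at 298 FPKM or more in all 12 libraries, while EPCAM and CDH1, also epithelial, did not exceed 1.19 and 1.17 FPKM in H460 (FPKM, fragments counted per transcript, scaled by its length and the library's size). Of the markers of other cell types, PTPRC, CD3E, VWF and DCN did not exceed 0.470 FPKM, and COL1A1 and COL3A1 reached 7.61 and 8.56 FPKM. Mitochondrial transcripts took a larger share of the FPKM total with siRNA 30 than with siRNA 28 in every line, with 1.56% against 0.892% in A549, 22.8% against 17.3% in H2023 and 26.0% against 20.8% in H460. Between the controls the share was also larger in library 1 than in library 0 of H2023 (18.1% against 11.965%) and H460 (13.1% against 8.56%), and 1.28% against 1.29% in A549. The part of this share in the differences was not tested beyond a rescaling without these transcripts.

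NRF2, the product of NFE2L2, is a transcription factor that switches on genes of antioxidant defence, glutathione synthesis and drug detoxification, and KEAP1 is the adaptor protein that sends it for degradation. An siRNA is a short RNA duplex whose guide strand is loaded into the Argonaute protein of the RNA-induced silencing complex and leads to cleavage of transcripts that match it along its length. The guide also acts as a microRNA does: a short stretch near its start, the seed, can pair with sites in the 3′ untranslated regions (3′ UTRs) of other transcripts and lower them mildly. For this reason a knockdown is commonly done with more than 1 siRNA against the same transcript.

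Both siRNAs lowered their target. NFE2L2 (chr2:178083395-178257484, minus strand; coordinates throughout are on GRCh37) measured 38.2 and 30.9 FPKM in the A549 controls, 5.31 FPKM with siRNA 28 and 7.84 FPKM with siRNA 30. In H2023 its controls measured 120 and 118 FPKM, against 7.74 FPKM with siRNA 28 and 6.80 FPKM with siRNA 30. In H460 its controls measured 144 and 99.5 FPKM, against 6.54 FPKM with siRNA 28 and 12.2 FPKM with siRNA 30. All 6 knockdown libraries were below both controls of their line, and which siRNA left less NFE2L2 differed between lines. The SE and p of changes from control, here and below, rest on the spread of the control pairs and leave out that between lines. Averaged over the lines, NFE2L2 changed by -3.42 ± 0.14 (SE) on the log2(FPKM + 1) scale with siRNA 28 (limma adjusted p = 4.92e-06) and by -3.05 ± 0.14 with siRNA 30 (adjusted p = 8.92e-06), and the difference between the 2 siRNAs, taken throughout as siRNA 28 minus siRNA 30, was -0.38 ± 0.22 (adjusted p = 0.361). NOTCH3, a Notch receptor that the study followed up as an NRF2 effector, likewise fell with each: its change was -2.12 with siRNA 28 (adjusted p = 5.51e-05) and -2.28 with siRNA 30 (adjusted p = 3.29e-05), with 0.17 ± 0.26 between them (adjusted p = 0.736).

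Beyond the target, a small set of genes was at least 2-fold apart between the 2 siRNAs in the same direction in all 3 lines. By sign alone the sets were far larger. Of the 11472 genes tested, 2259 were lower with siRNA 28 in all 3 lines and 3165 were lower with siRNA 30. Among 11472 genes tested, 13 (0.113%) were at least 2-fold lower with siRNA 28 than with siRNA 30 in each of the 3 lines, and 51 (0.445%) were at least 2-fold lower with siRNA 30 in each line. By the same rule, 0 genes separated control library 0 from control library 1 in either direction (0%). In single lines the counts were larger: 32 genes were 2-fold lower with siRNA 28 and 115 with siRNA 30 in A549, and the same counts were 356 and 401 in the H2023 libraries and 501 and 546 in those of H460. Between the 2 controls of a line, 9 genes were 2-fold lower in library 0 and 23 in library 1 (A549), 62 and 49 (H2023), or 71 and 186 (H460). The siRNA libraries thus had more genes 2-fold apart than the controls in every line and direction.

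The differences went together across lines. Across the 11472 genes, the difference in A549 and that in H2023 had a Pearson correlation of 0.513 (Spearman 0.482), A549 and H460 0.473 (0.447), and H2023 and H460 0.410 (0.389). The same correlations for control library 0 minus control library 1 were 0.0306, 0.0263 and 0.0533. These are across genes, which are not independent replicates, and the points of the 3 lines share the siRNAs but no library. The SD of the difference over genes was 0.339 (A549), 0.535 (H2023) and 0.614 (H460), against 0.228, 0.317 and 0.410 between the controls.

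**Figure D1:**
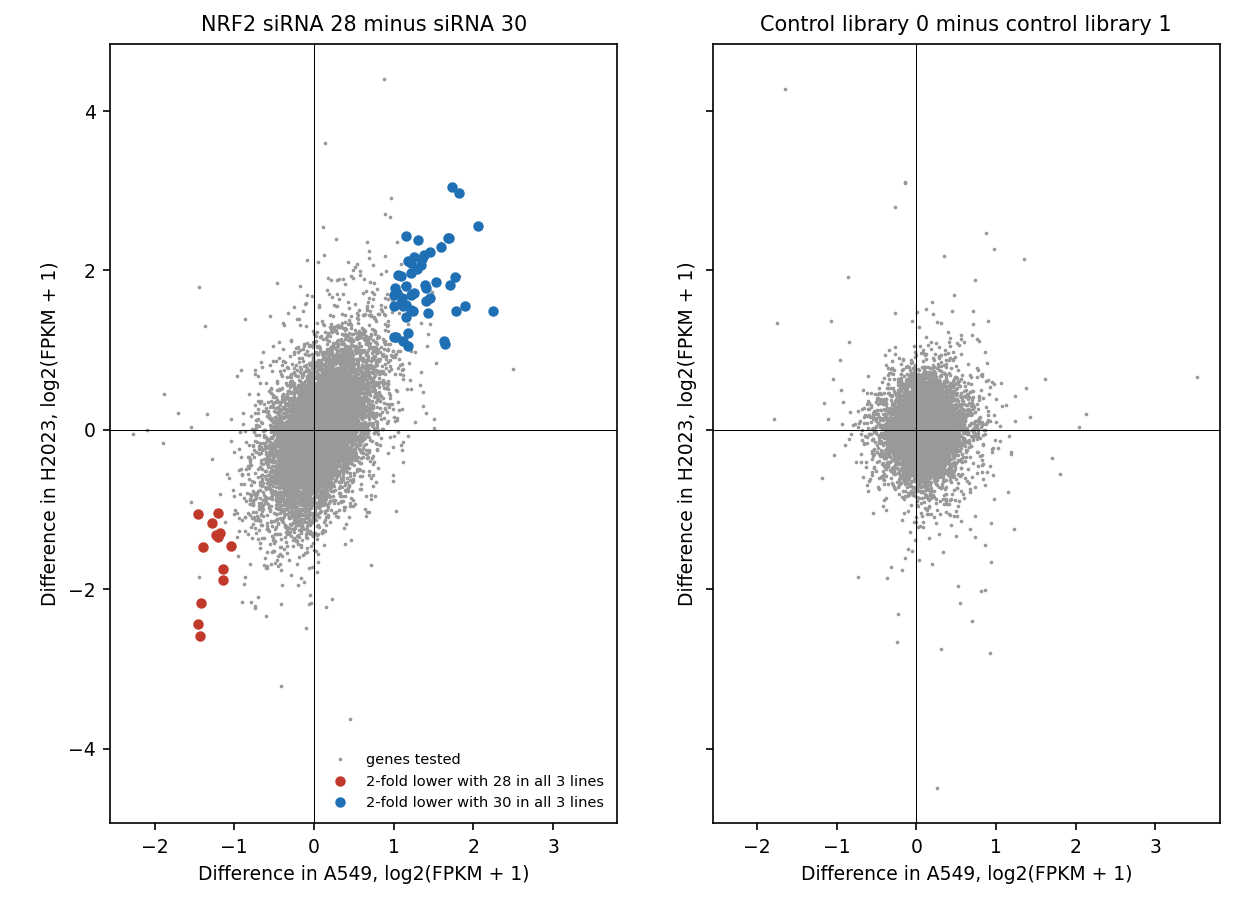
Difference of log2(FPKM + 1) in A549 (horizontal axis) and in H2023 (vertical axis) for the 11472 genes tested, for siRNA 28 minus siRNA 30 (left panel) and control library 0 minus control library 1 (right panel). Red points are the 13 genes at least 2-fold lower with siRNA 28 in all 3 lines and blue points the 51 at least 2-fold lower with siRNA 30; the left cloud leans along the diagonal (r = 0.513) and the right one does not (r = 0.0306).

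With the 3 lines as replicates, 46 genes (0.401%) passed an adjusted p of 0.05 in limma, 11 (0.0959%) lower with siRNA 28 and 35 (0.305%) lower with siRNA 30. Without adjustment 2589 genes (22.6%) had p under 0.05, 1025 (8.93%) lower with siRNA 28 and 1564 (13.6%) lower with siRNA 30. The adjusted p of the 46 genes lay between 0.0484 and 0.0491, close under the threshold, and 0 genes passed when H2023 or H460 was left out, when 0.1 was added in place of 1 before the logarithm, or with several other settings; 139 passed without A549. The size of a difference and its agreement over lines are therefore given beside each p.

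Among the genes lower with siRNA 28 were ARPC5, a subunit of the Arp2/3 complex that nucleates branched actin filaments, and CERS2, a ceramide synthase that makes very-long-chain ceramides. ARPC5 measured 68.8 and 67.2 FPKM in the A549 controls, 30.4 with siRNA 28 and 83.1 with siRNA 30. In H2023 it was at 103 and 121 FPKM in the controls, 28.8 with siRNA 28 and 133 with siRNA 30, and in H460 at 98.9 and 114 FPKM in the controls, 24.2 with siRNA 28 and 152 with siRNA 30. Each siRNA 28 library thus held less ARPC5 than both controls of its line, and each siRNA 30 library more (difference -2.06 ± 0.23, adjusted p = 0.0484). CERS2 measured 102 and 103 FPKM in the A549 controls, 51.1 with siRNA 28 and 114 with siRNA 30; 312 and 338 in the H2023 controls, 121 and 448; and 356 and 313 in the H460 controls, 72.1 and 332. CERS2 was below both controls in each line with siRNA 28 only (difference -1.74 ± 0.21, adjusted p = 0.0484).

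ABCC1, the multidrug resistance exporter MRP1 and a known NRF2 target, fell with both siRNAs and fell further with siRNA 28. It measured 28.5 and 25.2 FPKM in the A549 controls, 7.43 with siRNA 28 and 17.6 with siRNA 30. In H2023 the controls were at 60.9 and 64.0 FPKM, against 9.19 with siRNA 28 and 33.2 with siRNA 30. In H460 the controls were at 48.8 and 54.9 FPKM, against 7.56 with siRNA 28 and 52.1 with siRNA 30. Only with siRNA 28 was ABCC1 well under the controls in H460, whereas siRNA 30 left it between them. Its change from control was -2.33 ± 0.10 with siRNA 28 (adjusted p = 6.07e-06) and -0.49 ± 0.10 with siRNA 30 (adjusted p = 0.00669); the difference of -1.84 ± 0.28 did not pass the test between siRNAs (adjusted p = 0.0552).

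FSTL1, a secreted glycoprotein, moved in opposite directions from control. In A549 it measured 5.13 and 5.08 FPKM in the controls, 1.95 with siRNA 28 and 7.10 with siRNA 30. In H2023 its controls were at 8.95 and 11.9 FPKM, against 3.24 with siRNA 28 and 21.9 with siRNA 30, and in H460 at 12.4 and 24.8 FPKM, against 4.41 and 69.6. Every siRNA 28 library was below both controls and every siRNA 30 library above them; against control FSTL1 fell with siRNA 28 (-1.42 ± 0.21, adjusted p = 0.00164) and rose with siRNA 30 (1.12 ± 0.21, adjusted p = 0.00442), while the difference between siRNAs, -2.53 ± 0.39, had an adjusted p of 0.0552. GABPB1 and GABPB2, the alternative beta subunits of the transcription factor GABP, also fell with siRNA 28 and rose with siRNA 30 on average: GABPB1 changed by -0.60 with siRNA 28 and 0.85 with siRNA 30, and GABPB2 by -0.99 and 0.56, all 4 past the test against control. Single libraries of GABPB2 lay between their controls, namely siRNA 28 in A549 (3.76 FPKM, controls 4.87 and 3.53) and siRNA 30 in H2023 (8.90 FPKM, controls 9.32 and 7.78). Of this pair GABPB1 passed the test between siRNAs (-1.45 ± 0.18, adjusted p = 0.0491) and GABPB2 gave -1.54 ± 0.23 (adjusted p = 0.0552).

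The remaining protein-coding genes lower with siRNA 28 were TMEM35B (difference -1.98 ± 0.24), CDV3 (-1.77 ± 0.23), TMEM64 (-1.36 ± 0.15), RBM4B (-1.25 ± 0.15) and NID2 (-1.17 ± 0.15), each with an adjusted p of 0.0484 or 0.0491, and CARD19 (-1.32 ± 0.18, adjusted p = 0.0518). In H2023 the controls of NID2 also lay apart, at 35.9 and 81.0 FPKM in libraries 0 and 1, beside 26.7 with siRNA 28 and 74.8 with siRNA 30. NID2 codes for a basement membrane protein, RBM4B for an RNA-binding protein, and TMEM35B and TMEM64 for membrane proteins. The last of the 13, FTLP3, is a processed pseudogene of the ferritin light chain gene FTL, and reads of the 2 are nearly identical, so its value is uncertain. FTL itself, at 9933 and 9096 FPKM in the A549 controls, fell to 487 FPKM with siRNA 28 and 1415 with siRNA 30. In H2023 FTL fell from 22785 and 17475 FPKM to 1227 and 2303, and in H460 from 10216 and 9390 FPKM to 284 and 1896. FTL was lower with siRNA 28 in all 3 lines, with a difference of -1.73 ± 0.33 (adjusted p = 0.0678).

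Of the 51 genes lower with siRNA 30, the one that siRNA 30 lowered most from control was HNRNPA1, an abundant RNA-binding protein of pre-mRNA splicing (chr12:54673977-54680872, plus strand). It measured 367 and 361 FPKM in the A549 controls, 321 with siRNA 28 and 98.0 with siRNA 30. In H2023 the controls were at 568 and 467 FPKM, against 477 with siRNA 28 and 88.9 with siRNA 30, and in H460 at 1410 and 1145 FPKM, against 542 and 105. In each line the siRNA 30 library was the lowest of the 4. HNRNPA1 changed by -2.66 ± 0.12 with siRNA 30 (adjusted p = 7.3e-06) and by -0.51 ± 0.12 with siRNA 28 (adjusted p = 0.0115), and the difference was 2.15 ± 0.18 (adjusted p = 0.0484). Reads of HNRNPA1 also match copies such as HNRNPA1L3, which was lower with siRNA 30 as well (1.40), so the value of the copy is uncertain.

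COX7C, a subunit of cytochrome c oxidase in the respiratory chain, measured 237 and 201 FPKM in the A549 controls, 252 with siRNA 28 and 70.7 with siRNA 30. In H2023 it was at 106 and 89.4 FPKM in the controls, 85.8 with siRNA 28 and 10.1 with siRNA 30, and in H460 at 135 and 142 FPKM, 141 and 18.9. With siRNA 28 COX7C was at or near its control values in every line, and with siRNA 30 it was far below them (difference 2.54 ± 0.24, adjusted p = 0.0484; 0.01 ± 0.10 from control with siRNA 28 and -2.52 ± 0.10 with siRNA 30). HPRT1, the purine salvage enzyme that the study's methods name among several internal controls of its RT-PCR, measured 11.6 and 8.72 FPKM in the A549 controls, 10.6 with siRNA 28 and 3.31 with siRNA 30. In H2023 HPRT1 was at 29.6 and 35.8 FPKM in the controls, 33.8 with siRNA 28 and 11.6 with siRNA 30, and in H460 at 110 and 106 FPKM, 50.9 and 19.9. It fell with siRNA 30 in every line (-1.72 ± 0.12, adjusted p = 6.08e-05), whereas the change with siRNA 28, -0.32 ± 0.12, did not pass (adjusted p = 0.0731); between siRNAs the difference was 1.40 ± 0.14 (adjusted p = 0.0484).

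**Figure D2:**
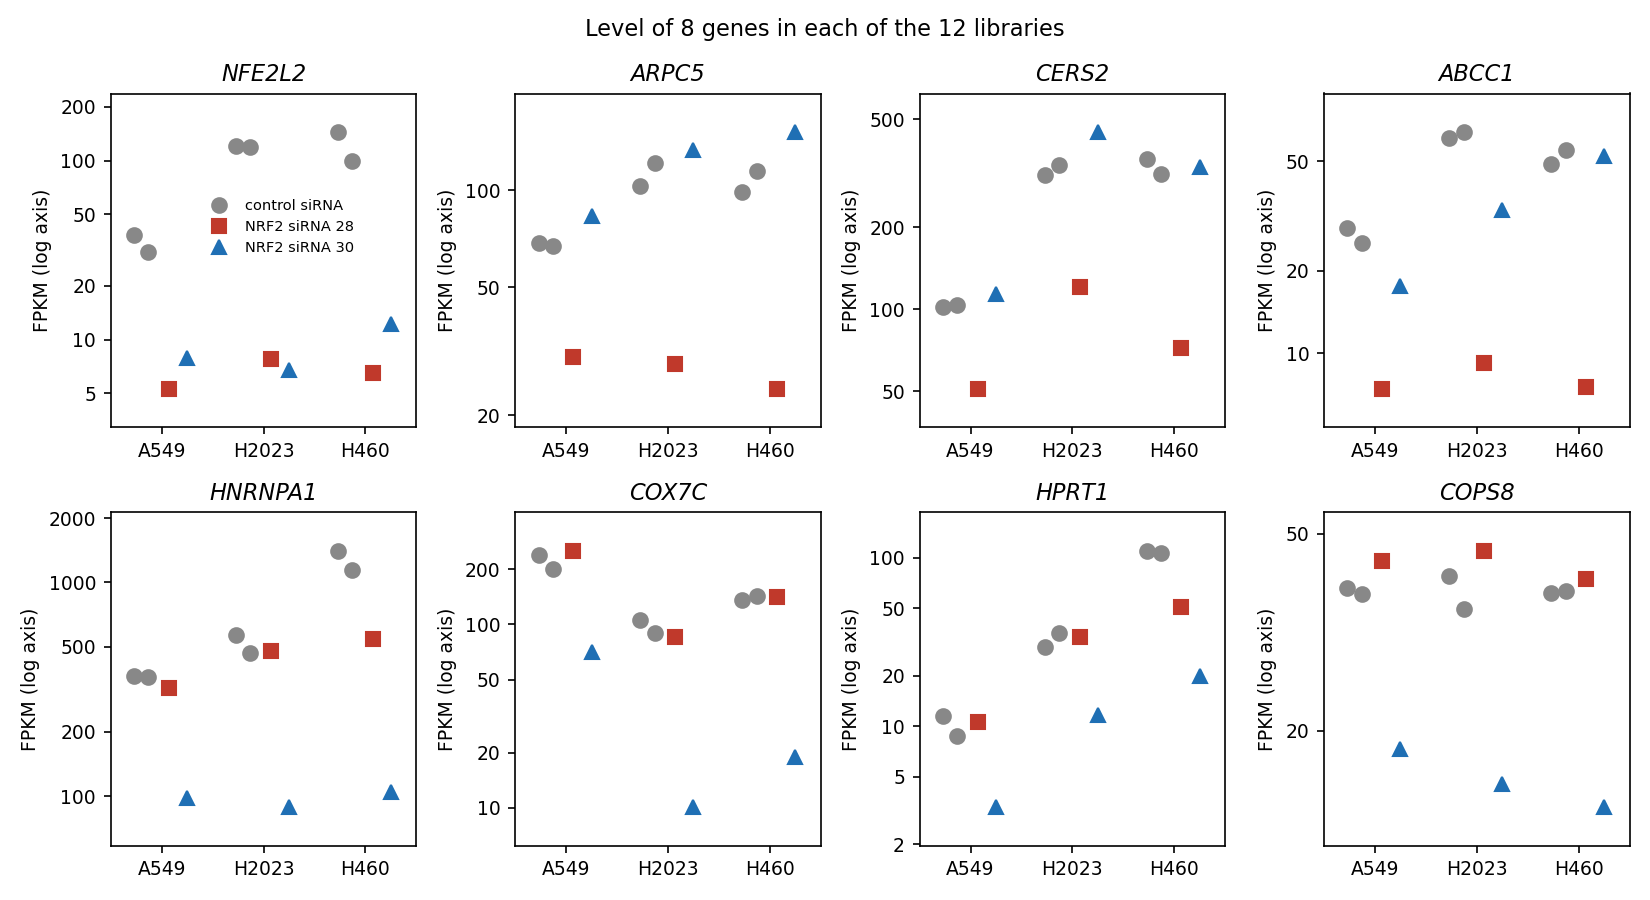
FPKM on a log axis of 8 genes in each of the 12 libraries, by cell line, with control siRNA in grey (2 libraries per line), NRF2 siRNA 28 in red and NRF2 siRNA 30 in blue. NFE2L2 was low with both siRNAs, ARPC5, CERS2 and ABCC1 were lowest with siRNA 28 in every line, and HNRNPA1, COX7C, HPRT1 and COPS8 were lowest with siRNA 30 in every line.

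COPS8, a subunit of the COP9 signalosome that removes NEDD8 from cullin ubiquitin ligases, was at 38.8 and 37.8 FPKM in the A549 controls, 44 with siRNA 28 and 18.4 with siRNA 30. In H2023 and H460 it was likewise above both controls with siRNA 28 (46.3 and 40.5 FPKM) and below them with siRNA 30 (15.6 and 14.0 FPKM), a difference of 1.40 ± 0.14. Other genes with the smallest p on this side were ERBIN, a scaffold protein that binds the receptor ERBB2 (1.58 ± 0.15), METTL23, a methyltransferase (1.58 ± 0.15), LANCL1, a glutathione-binding protein (1.43 ± 0.15), IMPA1, an inositol monophosphatase (2.02 ± 0.22), ASPH, an aspartate hydroxylase (1.86 ± 0.20), and KIF3B, a kinesin motor subunit (1.76 ± 0.19), all at an adjusted p of 0.0484. Against control each of these 7 genes, COPS8 included, fell with siRNA 30, from -0.96 ± 0.11 for LANCL1 to -1.96 ± 0.10 for KIF3B.

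EGR1, an immediate early transcription factor, had the same adjusted p (difference 1.83 ± 0.18), but in A549 and H460 its controls were at least as far apart as the siRNAs. It measured 14.9 and 2.62 FPKM in control libraries 0 and 1 of A549, 12.4 with siRNA 28 and 2.62 with siRNA 30. In H460 it measured 32.5 and 1.13 FPKM in the controls, 11.1 with siRNA 28 and 1.96 with siRNA 30, and in H2023 0.686 and 0.466 FPKM in the controls, 6.13 and 1.43. In A549 and H460 EGR1 was higher in library 0 than in library 1 with and without the NRF2 siRNAs. Neither siRNA passed the test against control (adjusted p = 0.281 and 0.557), and with the library number as a replicate block the difference was -0.279 (adjusted p = 0.888).

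Against control, the 13 genes of the 2-fold rule lower with siRNA 28 had moved mostly with that siRNA. The tests against control called 2001 genes lower (17.4%) and 2151 higher (18.8%) with siRNA 28, and 2247 lower (19.6%) and 1997 higher (17.4%) with siRNA 30; these comparisons share the 6 controls, so only their values are set side by side. All 13 were called lower with siRNA 28, and 12 of the 13 were below both controls of their line in all 3 lines. With siRNA 30, 6 of them were called higher than control (GABPB1, GABPB2, ARPC5, FSTL1, RBM4B and TMEM64) and 3 lower (ABCC1, CARD19 and FTLP3). Their median change was -1.54 with siRNA 28 and 0.347 with siRNA 30, where the median over all genes tested was 0.00784 and -0.0107. Since the rule asks that siRNA 28 lie below siRNA 30, these medians describe the 13 genes and test nothing.

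Of the 51 genes lower with siRNA 30, 37 were called lower than control with siRNA 30, and 36 were below both controls in all 3 lines. With siRNA 28, 21 of the 51 were called higher than control and 4 lower, among them DERA, MRPS27 and HNRNPA1. The medians were -1.28 with siRNA 30 and 0.325 with siRNA 28. The other 14 were not called lower with siRNA 30, and the mean change from control with siRNA 28 was 0.98 to 2.79; they were AQP3, APOE, STMN3, VGF, DEPTOR, CXCL8, MT1F, ZNF467, BRSK1, PELI1, MOAP1, EGR1 and 2 genes without a symbol (ENSG00000256514 and ENSG00000256248). With siRNA 28 EGR1 did not pass against control (1.18 ± 0.80, adjusted p = 0.281), and its siRNA 28 libraries lay between the controls in A549 and H460. CXCL8 passed (1.57 ± 0.47, adjusted p = 0.0322), but in H460 its siRNA 28 library, at 427 FPKM, lay between controls of 631 and 133. MT1F in H2023 and ENSG00000256248 in A549 were likewise not above both controls with siRNA 28. AQP3, a channel for water and glycerol, measured 48.4 and 31.7 FPKM in the A549 controls, 269 with siRNA 28 and 63.8 with siRNA 30. In H2023 AQP3 measured 17.3 and 7.54 FPKM in the controls, 80.2 with siRNA 28 and 12.7 with siRNA 30, and in H460 7.49 and 3.92 FPKM, 48.0 and 2.06. AQP3 rose with siRNA 28 in every line (2.79 from control, adjusted p = 0.000329), and its change with siRNA 30 was -0.09 (adjusted p = 0.832).

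**Figure D3:**
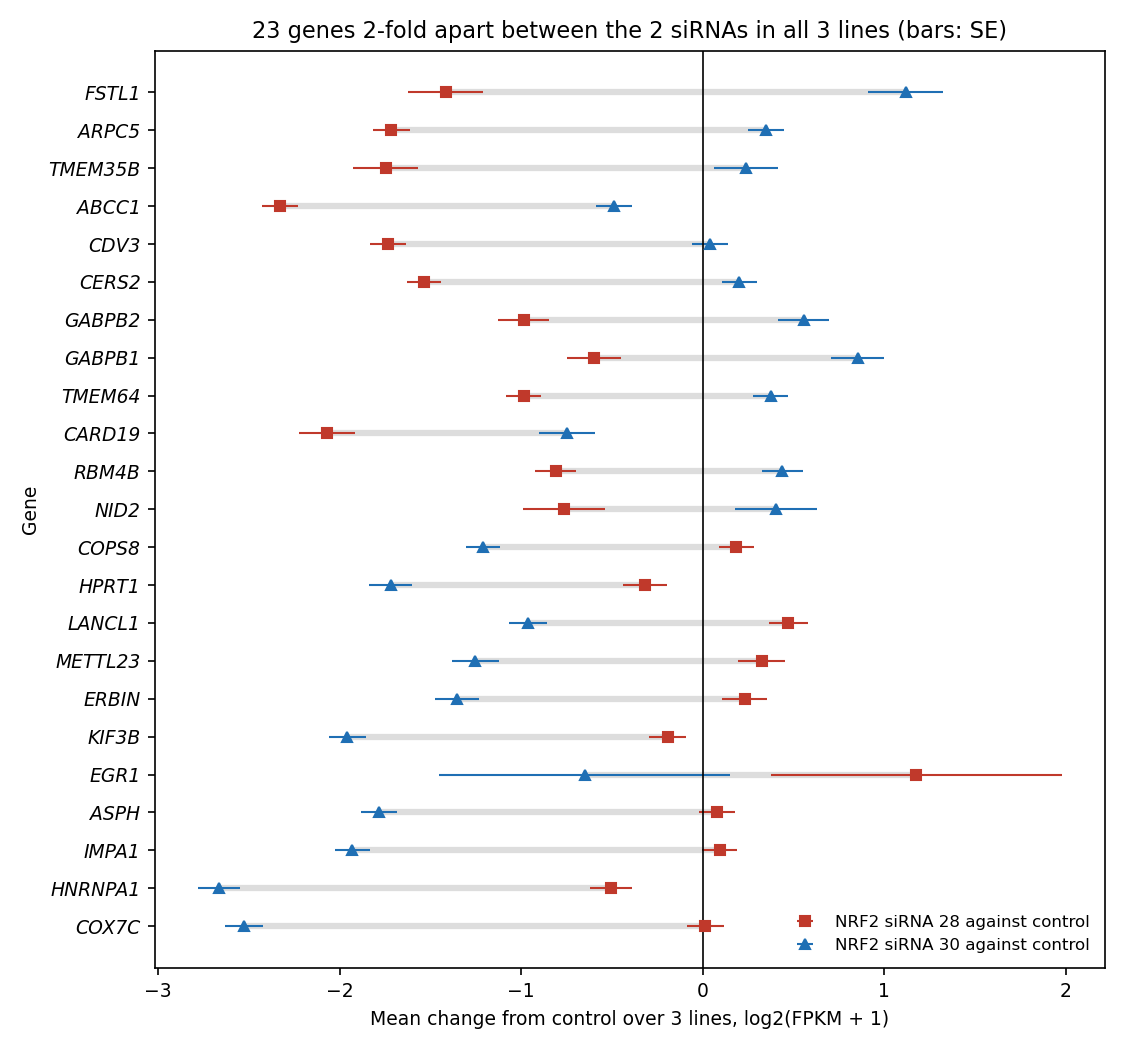
Mean change from control over the 3 lines, in log2(FPKM + 1), with siRNA 28 (red squares) and siRNA 30 (blue triangles) for 23 genes, bars giving the SE from the 12-library fit. For the upper 12 genes siRNA 28 lies below siRNA 30, from -2.33 (ABCC1) to -0.60 (GABPB1) against control, and for the lower 11 siRNA 30 lies below siRNA 28, with EGR1 having the widest bars (SE 0.80).

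The known NRF2 programme responded to both siRNAs. Of 39 NRF2 target genes, which include the glutathione synthesis gene GCLM and the quinone reductase gene NQO1, 37 were tested; 36 were called lower than control with siRNA 28 and 36 with siRNA 30, where 17.4% and 19.6% of all genes tested were, with median changes of -2.20 and -2.54. In the test between siRNAs 0 of the 37 were called; without adjustment 4 were lower with siRNA 28 and 7 lower with siRNA 30 (8.93% and 13.6% of all genes tested), and the median difference was 0.118, against 0.0232 over all genes tested. Members nevertheless leaned either way. AKR1B10, an aldo-keto reductase, measured 279 FPKM with siRNA 28 and 186 with siRNA 30 in A549, 145 and 35.7 in H2023, and 13.3 and 7.72 in H460, where the controls lay between 665 and 3144 (difference 1.10 ± 0.28, adjusted p = 0.105). SLC7A11, the cystine transporter that feeds glutathione synthesis, measured 10.8 and 6.17 FPKM in A549, 7.89 and 2.91 in H2023, and 14.3 and 9.32 in H460 (difference 0.83 ± 0.18, adjusted p = 0.0841). ABCC1, FTL and the ferritin heavy chain gene FTH1 (-0.78, adjusted p = 0.0881) leaned towards siRNA 28.

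Among 11 partners and regulators of NRF2, 0 were called between siRNAs; without adjustment 2 were lower with siRNA 28 and 2 with siRNA 30. MAFG, a small MAF protein that binds DNA as a dimer with NRF2, fell with both (-1.80 ± 0.10 with siRNA 28 and -1.22 ± 0.10 with siRNA 30), with -0.58 ± 0.17 between them (adjusted p = 0.129). The study lists by name 30 NRF2 effectors specific to NRF2-activated lines. Of these, 29 were tested and all 29 were called lower than control with each siRNA. They are part of a longer set that the study chose partly on these very libraries, so that their direction is not independent evidence. That set left out effectors also induced by the electrophile diethylmaleate in lung cancer lines with normal NRF2. The paper reports NRF2 binding with NRF2-dependent histone acetylation in A549 for many genes of the set. In the test between siRNAs 0 of the 29 were called, with 2 lower with siRNA 28 and 5 lower with siRNA 30 before adjustment (8.93% and 13.6% of all genes tested) and a median difference of 0.0447. The largest differences were those of ATPAF1, an assembly factor of mitochondrial ATP synthase (0.86 ± 0.14, adjusted p = 0.0597), NUP54, a nucleoporin (0.69 ± 0.21), RAB11FIP2, a Rab11 effector (0.68 ± 0.17), and LDLRAD3 (0.57 ± 0.18), all lower with siRNA 30. In 13 Notch pathway genes, 0 were called between siRNAs (1 and 2 before adjustment). The Notch target HES1 was lower with siRNA 30 in all 3 lines (0.88 ± 0.15, adjusted p = 0.06). Against control HES1 rose with siRNA 28 (1.06 ± 0.24, adjusted p = 0.0102) and gave 0.18 ± 0.24 with siRNA 30 (adjusted p = 0.589), and its A549 controls, at 35.3 and 15.7 FPKM, were as far apart as the siRNAs, at 39.1 and 17.7. ADAM17, a protease that cleaves Notch receptors, was lower with siRNA 28 in all 3 lines (-0.80 ± 0.23, adjusted p = 0.125).

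In 3 protein complexes or families 1 member was called. Of 13 genes of the Arp2/3 complex and its activators 1 was called lower with siRNA 28, ARPC5, and 0 lower with siRNA 30, with a median of 0.0837; before adjustment 3 were lower with siRNA 28 and 5 with siRNA 30, beside 8.93% and 13.6% of all genes tested. WASF2, which activates the complex, measured 5.54 FPKM with siRNA 28 and 8.50 with siRNA 30 in A549, 15 and 50.4 in H2023, and 11.2 and 39.8 in H460 (difference -1.32 ± 0.26, adjusted p = 0.0684). ACTR2, one of the actin-related proteins of the complex, lay on the other side in every line (0.93 ± 0.13, adjusted p = 0.0521). Of 19 hnRNP genes HNRNPA1 alone was called, and 8 of the 19 were lower with siRNA 28 in all 3 lines against 2 lower with siRNA 30, where 2259 and 3165 of all 11472 genes did so. HNRNPA3 (-0.69 ± 0.13, adjusted p = 0.0633) lies on the opposite strand across the end of NFE2L2, and the libraries were strand-specific. Of 9 COP9 signalosome subunits COPS8 alone was called, and COPS5, the catalytic subunit, gave 0.52 ± 0.14 (adjusted p = 0.112).

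Cell cycle genes were lower with siRNA 28 in H2023, mostly so but by less in A549, and did not follow 1 direction in H460. Of 25 such genes 0 were called between siRNAs, 7 were lower with siRNA 28 and 0 lower with siRNA 30 before adjustment (8.93% and 13.6% of all genes tested), and the median was -0.227. In H2023 all 25 were lower with siRNA 28 than with siRNA 30 (median -0.852), in A549 20 of 25 (median -0.111) and in H460 12 of 25 (median 0.345). TOP2A, the topoisomerase of dividing cells, measured 111 FPKM with siRNA 28 and 156 with siRNA 30 in A549, 68.1 and 163 in H2023 and 39.6 and 71.8 in H460 (difference -0.86 ± 0.17, adjusted p = 0.072). The DNA replication genes MCM6 (-0.84), CDT1 (-0.76) and PCNA (-0.70) were lower with siRNA 28 in all 3 lines and did not pass either. Against control, 22 of the 25 were called lower with siRNA 28 and 15 with siRNA 30, where 17.4% and 19.6% of all genes tested were. By line, their median change from control with siRNA 28 and siRNA 30 was -0.616 and 0.192 in H2023. It was -0.298 and -0.145 in A549, and -1.40 and -1.31 in H460. In bulk libraries fewer cycling cells and less of these RNAs per cell cannot be told apart.

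Of the stress and antiviral genes 1 was called between siRNAs. Of 19 genes of the ATF4 and unfolded protein response 1 was called, DNAJB9, an endoplasmic reticulum co-chaperone that was lower with siRNA 30 (1.69 ± 0.20, adjusted p = 0.0484); before adjustment 4 were lower with siRNA 30 and 0 with siRNA 28. TRIB3, an ATF4 target, gave 1.49 ± 0.40 (adjusted p = 0.114), but its H460 controls alone measured 113 and 26.1 FPKM. Of 17 p53 target genes 0 were called (1 lower with siRNA 28 and 5 lower with siRNA 30 before adjustment, where 8.93% and 13.6% of all genes tested were). The median of these p53 targets was 0.173 (A549), -0.140 (H2023) and 0.720 (H460), with 12, 7 and 15 of the 17 lower with siRNA 30, so the lines did not share 1 direction. Of 23 interferon and double-stranded RNA response genes 12 were expressed enough to test and 0 were called (2 and 1 before adjustment), with medians of 0.00323 (A549), 0.0577 (H2023) and -0.599 (H460), where 10 of the 12 were lower with siRNA 28. RIGI, a sensor of double-stranded RNA, rose from control with siRNA 30 (0.91 ± 0.13, adjusted p = 0.0014) and with siRNA 28 (0.44 ± 0.13, adjusted p = 0.0276). Of 15 genes of the RNA interference machinery itself 0 were called (2 and 0 before adjustment), and the median difference was -0.0174.

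The genes lower with 1 siRNA were then examined for what their 3′ UTRs share. Every 7-base word (heptamer) held by at least 200 of the 10411 tested genes with an annotated 3′ UTR, 13933 in all, was scored in A549 by the mean difference of the genes that hold it on the transcript strand minus that of the genes that do not. Of the 7154 heptamers also present in the protein-coding transcripts of NFE2L2, AACCAAA had the lowest score in A549 and AACTCAT the highest. AACCAAA scored -0.108 in A549 and, in the lines that the choice did not use, -0.104 in H2023 and -0.258 in H460, ranks 2 and 1 from the bottom of the 7154. AACTCAT scored 0.0997 in A549, 0.226 in H2023 and 0.114 in H460, ranks 2 and 3 from the top in the last 2 lines. They were also the lowest and the highest of all 13933 heptamers in A549, where the median score was -0.00977. Between the control libraries AACCAAA scored between -0.00048 and 0.0202 and AACTCAT between 0.00398 and 0.0142. The next heptamers overlapped these: CAACCAA and AAACCAA at the low end, and ACTCATA and GAACTCA at the high end.

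**Figure D4:**
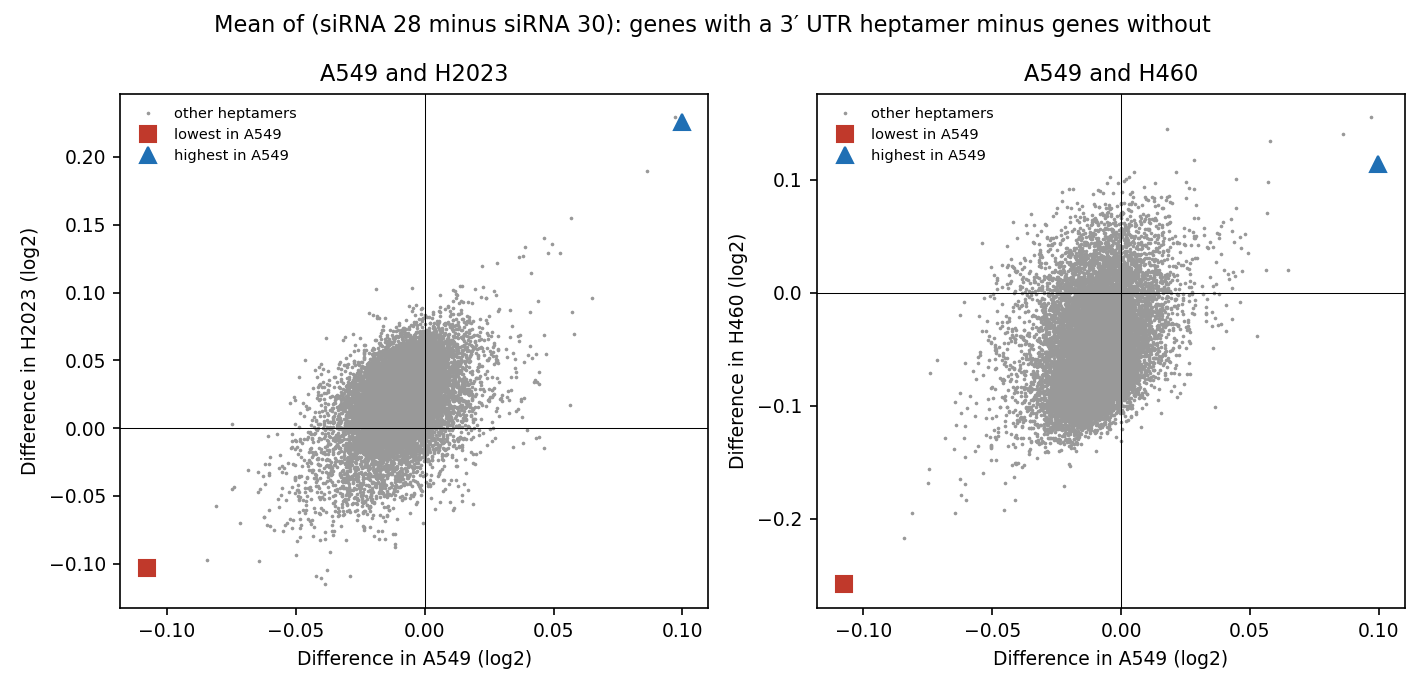
Each point is 1 of 13933 heptamers, placed by the mean difference (siRNA 28 minus siRNA 30, log2) of genes holding it in the 3′ UTR minus genes without it, in A549 on the horizontal axis and in H2023 (left) or H460 (right) on the vertical axis. The heptamer lowest in A549 (AACCAAA, red square, -0.108) was also low in H2023 and lowest in H460, and the one highest in A549 (AACTCAT, blue triangle, 0.0997) was also high in both.

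Each heptamer occurs in the NFE2L2 coding sequence, shown here because these are the transcripts that both siRNAs were made to match. The capitals in all the sequences that follow mark the heptamer, 30 bases are printed 5′ to 3′ on the transcript strand, and the sequences come from GENCODE transcripts on GRCh37. The site with AACCAAA lies at chr2:178096328-178096357 (minus strand) and that with AACTCAT at chr2:178096508-178096537 (minus strand), each inside the coding sequence of 35 annotated transcripts. AACCAAA also occurs outside the coding sequence of NFE2L2, at chr2:178084850-178084879 (minus strand) in its longest annotated 3′ UTR, where the match with the coding site is the 7 bases alone, and across a splice junction of 1 transcript. The match lengths given for other genes are against the coding site, since which site either siRNA was made from is not given in the sources used here.
NFE2L2 coding, AACCAAA: gcaaagctttcAACCAAAaccaccctgaaa
NFE2L2 coding, AACTCAT: agttgacagtgAACTCATtaaattcagatg
The sequences of siRNAs 28 and 30 were not given in the sources used here, so whether either heptamer pairs with the seed of either siRNA was not tested.

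Of the 12 genes with a 3′ UTR that were 2-fold lower with siRNA 28 in all lines, 8 (66.7%) held AACCAAA, against 19.9% of all tested genes and 7 (14.0%) of the 50 lower with siRNA 30. Among genes that passed the test between siRNAs it was held by 4 of the 10 lower with siRNA 28 (40.0%) and 6 of the 35 lower with siRNA 30 (17.1%). The 8 were ARPC5, CERS2, ABCC1, FSTL1, CDV3, TMEM35B, CARD19 and GABPB2. These genes also entered the scores, so the share describes them and is no separate test, and their 3′ UTRs were long (median 2531 bases for the 12, 1530 for all genes). The sites of the genes described above are printed to show how far the match with the NFE2L2 site runs past the heptamer: ARPC5 at chr1:183596588-183596617 (minus strand), CERS2 at chr1:150938449-150938478 (minus strand), TMEM35B at chr1:35447284-35447313 (minus strand), CDV3 at chr3:133307574-133307603 (plus strand), ABCC1 at chr16:16235253-16235282 (plus strand) and FSTL1 at chr3:120115167-120115196 (minus strand).
ARPC5: aagaccaaaacAACCAAAtgccaccgctgc
CERS2: agttgcctttaAACCAAAttctaaccagcc
TMEM35B: aaatttaaatcAACCAAAattctgatgccc
CDV3: aaaataaattcAACCAAActggggtccacc
ABCC1: caaacccagacAACCAAAacatattcaaag
FSTL1: cttagcgacctAACCAAAttttaaaaatac
ABCC1 and CDV3 each held 3 such sites and ARPC5 and CERS2 held 2, and where sites differed, one with the longest unbroken match to the NFE2L2 coding site was printed. That match was 10 bases in TMEM35B, CDV3 and ABCC1, 8 in ARPC5 and 7, the heptamer alone, in CERS2 and FSTL1. At the sites not printed it was 10 and 7 bases in CDV3, 9 and 7 in ABCC1, 7 in ARPC5, 7 in CERS2, 9 at the site of CARD19, and 8, 7 and 7 at those of GABPB2.

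Of the 50 genes with a 3′ UTR that were 2-fold lower with siRNA 30, 20 (40.0%) held AACTCAT, against 13.1% of all tested genes and 0 of the 12 lower with siRNA 28. Among genes that passed the test between siRNAs it was held by 11 of the 35 lower with siRNA 30 (31.4%) and 0 of the 10 lower with siRNA 28. COX7C holds it at chr5:85916524-85916553 (plus strand), in the 3′ UTR of an alternative transcript that these cells may not make, METTL23 at chr17:74729912-74729941 (plus strand), HPRT1 at chrX:133634380-133634409 (plus strand), ERBIN at chr5:65376180-65376209 (plus strand) and LANCL1 at chr2:211296225-211296254 (minus strand).
COX7C: gatcaaactagAACTCATatgccatactag
METTL23: gacaacacttaAACTCATatgaaacaaaaa
HPRT1: gtgaaacattgAACTCATatctgtaagaaa
ERBIN: ttgtaaattttAACTCATtttagttgattt
LANCL1: ttggctgctagAACTCATctgtagtccttt
The unbroken match with the NFE2L2 coding site was 9 bases in HPRT1, 8 in COX7C, ERBIN and LANCL1, and 7 in METTL23. HNRNPA1, COPS8, IMPA1, ASPH and KIF3B, all lower with siRNA 30, held 0 copies of AACTCAT in their longest annotated 3′ UTR. Likewise GABPB1, NID2, RBM4B and TMEM64, lower with siRNA 28, held 0 copies of AACCAAA.

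Across all genes with a 3′ UTR, the change with siRNA 28 went with the number of AACCAAA sites and that with siRNA 30 with the number of AACTCAT sites. With siRNA 28 in H460, the median change from control was -0.0239 in the 8335 genes without AACCAAA, -0.163 in the 1575 with 1 site, -0.234 in the 374 with 2 and -0.304 in the 127 with 3 or more. With siRNA 30 in the same line and the same genes the medians were -0.0655, -0.00923, 0.0255 and -0.0631. So the fall with AACCAAA sites was seen with siRNA 28 and had no counterpart of that size with siRNA 30. In A549 the medians with siRNA 28 were 0.0673, -0.00965, -0.0361 and -0.0894, and in H2023 0.0305, -0.0531, -0.0420 and -0.142. With siRNA 30 in H2023, the median change was 0.0443 in the 9052 genes without AACTCAT, -0.120 in the 1148 with 1 site, -0.360 in the 172 with 2 and -0.194 in the 39 with 3 or more, against 0.0158, 0.00606, 0.0117 and 0.0477 with siRNA 28. In H460 the medians in the same order were -0.0335, -0.176, -0.2695 and -0.183 with siRNA 30, and those with siRNA 28 also fell with the number of sites, from -0.0482 to -0.0942, -0.102 and -0.141. In A549 they were -0.00428, -0.0964, -0.170 and -0.124 with siRNA 30 and 0.0551, 0.0268, 0.0104 and 0.0404 with siRNA 28. In all 3 lines genes with 2 AACTCAT sites were lower with siRNA 30 than genes with 1, and genes with 3 or more were not lower still.

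**Figure D5:**
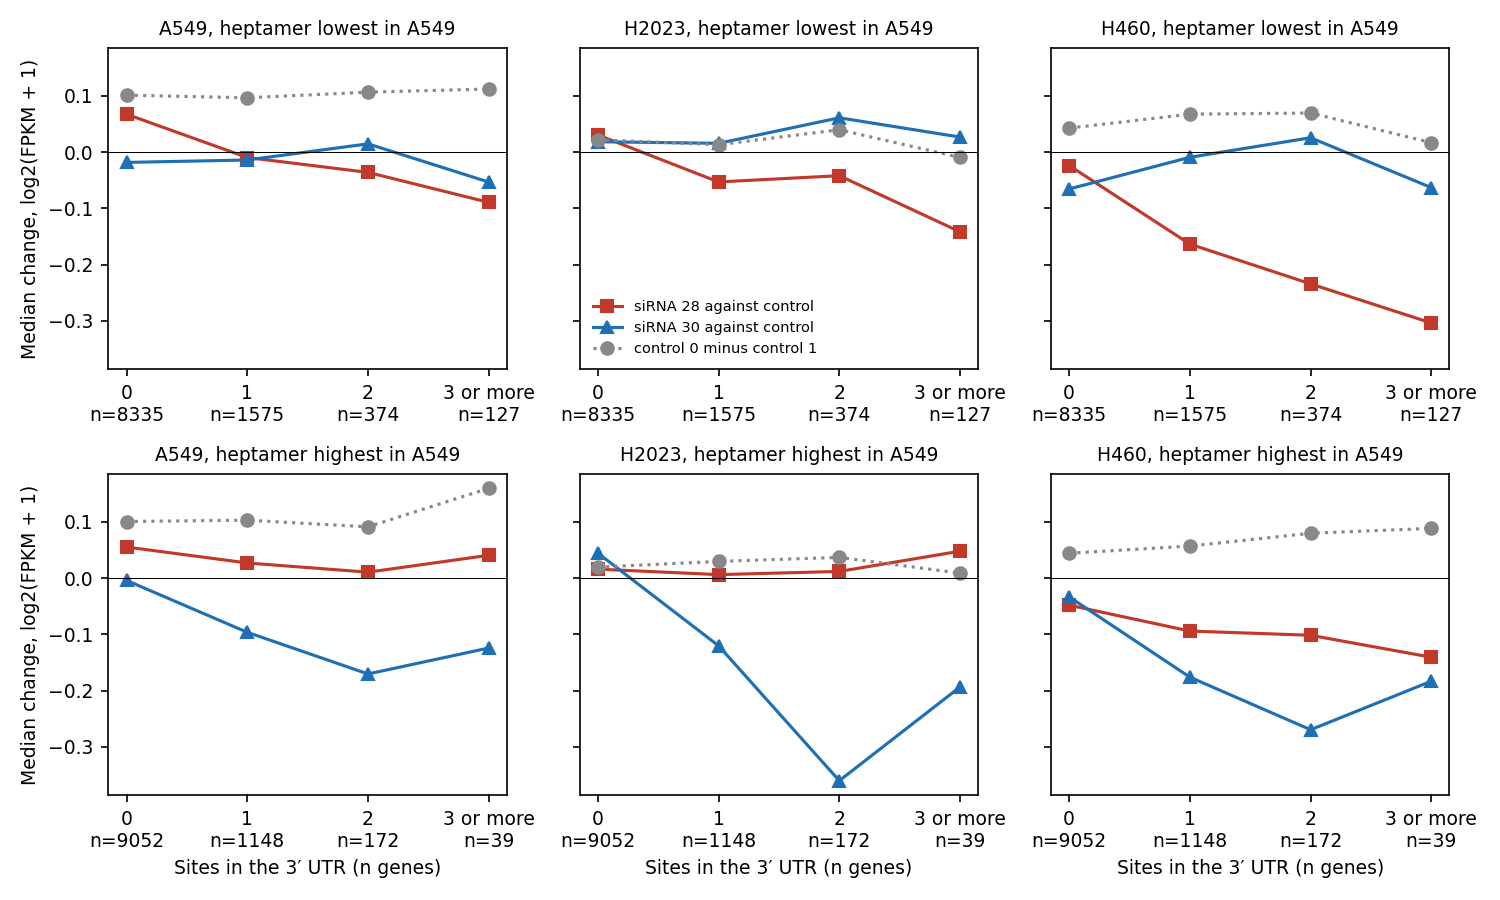
Median change in log2(FPKM + 1) of genes grouped by the number of sites in the 3′ UTR, for AACCAAA (upper row) and AACTCAT (lower row) in each line, with siRNA 28 against control in red, siRNA 30 against control in blue and control library 0 minus control library 1 in grey. The red line is lower at 3 or more AACCAAA sites than at 0 in every line, with -0.304 in H460 (it rises slightly from 1 to 2 sites in H2023), and the blue line falls with AACTCAT sites up to 2, to -0.360 in H2023, while the grey line stays between -0.00956 and 0.159.

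Among genes called against control, AACCAAA was held by 27.1% of those lower and 14.2% of those higher with siRNA 28, and by 18.8% and 20.2% with siRNA 30. AACTCAT was held by 20.1% of those lower and 8.97% of those higher with siRNA 30, and by 14.1% and 10.8% with siRNA 28. Each heptamer was thus held more often by genes lower than higher with the siRNA it was chosen for, and by a smaller margin, or none, with the other.

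Genes with either heptamer have longer 3′ UTRs (median 3162 bases with AACCAAA and 1244 without). Within 3′ UTRs of at most 3000 bases the median difference between siRNAs for genes with and without AACCAAA was -0.0401 against 0.0888 in A549, -0.117 against 0.0279 in H2023 and -0.174 against 0.0751 in H460. For AACTCAT in the same length class it was 0.195 against 0.0697, 0.223 against -0.00169 and 0.262 against 0.0370. The direction was the same above 3000 bases in all 3 lines for both heptamers. Of the genes with AACCAAA, 30.6% were lower with siRNA 28 in all 3 lines, against 16.8% without it, and of those with AACTCAT 39.4% were lower with siRNA 30 in all 3 lines, against 26.9%.

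The heptamers were also counted in the gene lists, beside the 19.9% of all tested genes that held AACCAAA and the 13.1% that held AACTCAT. Of the 36 NRF2 target genes with a 3′ UTR, 3 held AACCAAA, 4 held AACTCAT and 0 held both, and of the 25 cell cycle genes 1 held AACCAAA and 2 held AACTCAT. Of the 15 genes of the RNA interference machinery, whose median 3′ UTR was 2646 bases, 8 held AACCAAA and 4 held AACTCAT. Of the 29 effectors named by the study 16 (55.2%) held AACCAAA, 13 (44.8%) held AACTCAT and 10 (34.5%) held both, where 4.90% of all tested genes and 5.89% of the 1036 genes called lower than control with each siRNA held both. ATPAF1, RAB11FIP2, NUP54, FAM20B, ELAVL1 and PFN2 were among the 10. Their 3′ UTRs were long as well (median 2377 bases for the 29). Among 3′ UTRs of 2000 to 4000 bases 5 of 13 effectors held both heptamers, against 141 of 2625 tested genes (5.37%) and 20 of 221 genes called lower with each siRNA (9.05%). NOTCH3, HGD and SLC25A43 were among the effectors that held neither heptamer. The list holds only part of the study's set of effectors specific to NRF2-activated lines, and does not stand for its NRF2 effectors in general. It was chosen by the study with these libraries in hand, these counts were made after the heptamers were chosen, and no test was made of them.

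In RAB11FIP2, which traffics recycling endosomes, the sites lie at chr10:119767395-119767424 and chr10:119766429-119766458 (minus strand), and in LDLRAD3, a receptor-like membrane protein, at chr11:36252776-36252805 and chr11:36253347-36253376 (plus strand); they are shown as examples of effectors that hold both heptamers.
RAB11FIP2, AACCAAA: tttgggtcttgAACCAAAataagacttact
RAB11FIP2, AACTCAT: tacataaatagAACTCATttaaaagtatgg
LDLRAD3, AACCAAA: tttctttttttAACCAAAtccaaaggatgt
LDLRAD3, AACTCAT: caatattttttAACTCATtccaaccaggaa
RAB11FIP2 measured 11.9 and 12.2 FPKM in the A549 controls, 8.01 with siRNA 28 and 5.10 with siRNA 30. In H2023 it measured 9.48 and 10.7 FPKM in the controls, 5.30 and 3.19 with the siRNAs, and in H460 11.2 and 8.68 FPKM, 6.61 and 3.12. RAB11FIP2 was below both controls with each siRNA in every line, and lower with siRNA 30 each time. LDLRAD3 behaved alike, with 4.50 and 3.22 FPKM in A549, 3.73 and 2.49 in H2023 and 5.52 and 2.49 in H460, against controls of 5.65 to 12.5 FPKM. How much of either fall goes with NRF2 and how much with the heptamer cannot be told apart in these libraries, since each siRNA lowered NFE2L2 as well.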

How the data were processed

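RNA sequencing libraries were made with a strand-specific SureSelect kit from A549 (ribosomal RNA depleted), H2023 and H460 (polyadenylated RNA). The deposited values are FPKM for 57815 genes, which the authors computed on the hg19 (GRCh37) genome. The submitters' processing notes name bcl2fastq 2.15.0, cutadapt 1.15, STAR 2.5.3a, Cuffnorm, HTSeq and R 3.2.0, whereas the published methods name TopHat and Cufflinks. DESeq2 tables of the authors' own comparisons (mean counts, fold changes, standard errors and p-values) were not used. Read totals were not given in the sources used here. From the steps of low FPKM values, siRNA 28 libraries had 1.04 (A549), 0.973 (H2023) and 1.16 (H460) times the depth of siRNA 30 libraries. How deeply a low gene was covered is therefore unknown, and no counting interval is given.

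Groups came from the sample labels. The 12710 values under 1e-06 FPKM were set to 0, and 11472 genes were tested, those with a mean of at least 1 FPKM over the 4 libraries of each line. The 2 siRNAs were compared by limma 3.58.1 (R 4.3.3) on log2(FPKM + 1) with a variance trend, cell line as covariate and Benjamini-Hochberg adjustment over all tested genes. This fit used the 6 NRF2 siRNA libraries and left 2 residual degrees of freedom (4.40 prior degrees of freedom). A log2(FPKM + 1) difference understates the change of low genes. Changes from control came from all 12 libraries with 9 means, so their spread is that of the control pairs. The study's methods describe the 2 controls of a line as biological duplicates. A test for counts was not used because the values are FPKM. No 2 libraries were identical (0 identical pairs). 3′ UTRs were the longest annotated one per gene in GENCODE 44 on GRCh37 (96.1% of gene identifiers matched), searched on the transcript strand.

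Named genes were, for each direction, the 12 protein-coding genes with the smallest p among those at least 2-fold apart in all 3 lines, with NFE2L2, NOTCH3 and up to 4 genes per list with the largest difference of the same sign in all lines; other genes were named after their values were seen. A gene that this rule names and a marker gene are not reported here. The comparison, the lists and the members were chosen with earlier results of these data known. The procedures were tested on simulated data. Alternatives covered the pseudocount, the filter, scaling, the variance model, the libraries in the fit, each line left out, the replicate number as a block and the heptamer ranking.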

Additional observations from a re-analysis of the deposited data

Results flagged for a closer look

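Several genes of the lists lay on opposite sides of the 2 siRNAs in different lines (differences of siRNA 28 minus siRNA 30 in log2(FPKM + 1), 1 library per siRNA and line); whether the lines differ was not tested, and the average over lines is near 0 for most of them. In H2023 and H460 respectively, the replication and cell cycle genes CDC45 gave -0.82 and 0.81, CDC6 -0.77 and 0.91, TYMS -1.07 and 0.86, and the transcription factor gene E2F1 -0.85 and 1.09. The median over the 25 cell cycle genes was -0.852 in H2023 and 0.345 in H460. Of the p53 targets, the cyclin-dependent kinase inhibitor gene CDKN1A gave -1.38 in H2023, where it measured 11.9 FPKM with siRNA 28 and 32.4 with siRNA 30, and 1.17 in H460, where it measured 130 and 57.1 FPKM. DDB2, a DNA damage sensor, gave -0.97 in H2023 and 0.77 in H460. The epithelial keratin gene KRT19 gave 1.35 in H2023 and -0.78 in H460, and AKR1C1, an aldo-keto reductase gene under NRF2, 0.96 and -1.26. In 6 of these 8 genes the H2023 value was the negative one.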

How the results depend on the processing

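The test between siRNAs depends on its settings, since the adjusted p of its 46 calls lies just under the threshold. Calls lower with siRNA 28 and lower with siRNA 30 numbered 0 and 0 with a pseudocount of 0.1 or 0.5, with no filter on low values, with FPKM of at least 1 in 2 of the 6 NRF2 siRNA libraries, with no variance trend and with median-ratio scaling (limma; smallest adjusted p 0.0514 to 0.555, and 2557 to 2996 genes at an unadjusted p under 0.05). They numbered 56 and 158 with a mean of at least 5 FPKM, 502 and 893 with all 12 libraries in the fit, and 24 and 66 after rescaling without mitochondrial transcripts. Leaving out 1 line gave 0 to 50 and 0 to 89 calls, the highest without A549 and 0 without H2023 or H460. The 2-fold rule gave 24 and 83 genes with a pseudocount of 0.1, and 15 to 95 and 65 to 155 when 1 line was left out and only 2 lines had to agree, the highest without A549.

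The library number does not mark a shared culture or batch in the labels. The correlation across genes of siRNA 28 minus siRNA 30 with control 0 minus control 1 was 0.0576 (A549), 0.281 (H2023) and 0.140 (H460); A549 was not over 0.1, so the numbers were not taken as pairing the samples, and an effect of library number cannot be told apart from the siRNA. With the number as a replicate block 8 genes were lower with siRNA 28 and 19 lower with siRNA 30, 24 of these 27 among the 46, and EGR1 turned from 1.83 to -0.279.

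Without a filter, 4817 genes were called higher than control with siRNA 28 and 4904 with siRNA 30; with the control library of the same number alone, 19 genes were 2-fold higher in all lines with siRNA 30. The correlations of A549 with H2023, A549 with H460 and H2023 with H460 were 0.234, 0.220 and 0.291 without a filter and 0.386, 0.371 and 0.346 with FPKM of at least 1 in 2 libraries, and the first 2 were 0.569 and 0.527 with a mean of at least 5 FPKM. With the heptamers ranked in H2023, a choice made after seeing the data, the lowest one was not AACCAAA but ACGCCTC, held by 246 genes. ACGCCTC scored -0.109 in H2023, -0.0422 in A549 and -0.0918 in H460. Among 3′ UTRs of at most 3000 bases AACTCAT scored 0.248 in H460. Of the other values, 747 for named genes stayed on the same side of the threshold (with the other sign for NOTCH3 without H2023, -0.221), 175 were no longer past it, 44 were newly past it and 2, MAFF and SESN2 under the replicate block, changed sign without passing it (-0.257 and -0.138), and 161 of 182 list medians moved by no more than the SD over the 3 lines. The causes were not tested. With 1 library per siRNA and line and depth known only in relative terms, a gene that did not pass cannot be called equal between siRNAs.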

Other observations

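The 14 genes of the 2-fold rule that siRNA 30 did not lower include several that siRNA 28 raised from low levels; they were chosen here after their values were seen. APOE, the lipid carrier apolipoprotein E, measured 1.69 and 1.38 FPKM in the A549 controls, 5.24 with siRNA 28 and 1.51 with siRNA 30. In H2023 APOE measured 5.67 and 2.31 FPKM in the controls, 40.7 and 7.03 with the siRNAs, and in H460 0.542 and 0.215 FPKM, 7.87 and 0.924. It was highest with siRNA 28 in every line (2.38 from control, adjusted p = 0.000257; 0.42 with siRNA 30, adjusted p = 0.176). STMN3, a stathmin that binds tubulin, measured 11.6, 13.6 and 24.9 FPKM with siRNA 28 in A549, H2023 and H460, against 4.34, 4.20 and 3.05 with siRNA 30 and at most 3.07 in any control. VGF, a neuropeptide precursor, measured 6.03, 6.43 and 22.0 FPKM with siRNA 28, against 1.26, 2.53 and 1.96 with siRNA 30. PPARG, a nuclear receptor of lipid metabolism that siRNA 30 lowered (-0.57, adjusted p = 0.0104), rose with siRNA 28 (0.99, adjusted p = 0.00102). Its levels were 26.1, 14.7 and 10.0 FPKM with siRNA 28 and 11.2, 3.51 and 2.34 with siRNA 30 in the 3 lines. STMN3 and VGF were called higher than control with both siRNAs, and these 4 genes held neither AACCAAA nor AACTCAT in their 3′ UTRs.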
